A study of Mus musculus with 3 samples.

Results

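The cells described here were the top 10% of each library by a score of 8 genes of lipid-associated macrophages, 975 of 9749 kept cells. The score was the mean of ln(1 + UMIs per 10,000) over Trem2, Spp1, Fabp5, Cd9, Lgals3, Cd63, Syngr1 and Atp6v0d2, where a UMI is 1 counted transcript molecule. Mouse 1 gave 66 of 663 kept cells, mouse 2 gave 211 of 2108 and mouse 3 gave 698 of 6978. They were compared within each mouse with the 8774 other kept cells. The members were chosen by the measured levels of these 8 genes, so those levels are a description and carry no test, apart from fits in which the gene in question took no part in the choice.

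The 3 libraries came from 3 mice of the strain FVB/N-Tg(MMTVPyVT)634Mul/J, 1 mammary adenocarcinoma per mouse, each taken at a volume of 750 mm3. In this strain the MMTV promoter drives the polyomavirus middle T antigen in mammary epithelium. All 3 mice carried the transgene, the labels name no treatment and no age, and no tissue other than tumour was part of the design, so every comparison is between cells of the same tumour. Cells had been released with collagenase and DNase and sorted as CD45+ Ly6G- CD11b+ F4/80+, a gate for macrophages.

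TREM2 is a surface receptor that binds lipids and apolipoproteins and signals through the adaptor TYROBP. Macrophages that carry it and take up lipid-rich material have been described in fat tissue, atherosclerotic plaque, brain and tumours, where they share a set of genes for fatty acid binding, lysosomal degradation and cholesterol export. The lysosome breaks down what the cell engulfs, and a proton pump, the V-ATPase, keeps it acid. These statements are background and not results of these libraries.

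The high-score cells are a range of the score, cut at a share of each library. In mouse 1 the lowest score among them was 1.86026 and the highest score among the other cells was 1.86013. The same pair was 1.70065 and 1.70041 in mouse 2, and 2.06794 and 2.06721 in mouse 3. Whether the cells form a cluster of their own was not tested. Mouse 3 set the highest threshold. Only 5.13% of the kept cells of mouse 1 and 1.99% of those of mouse 2 lay above it. Cells with at least 2000 UMIs were also thinned to 2000, and the threshold was taken again from the thinned cells of mouse 3. The shares above that threshold were 5.997% of 617 cells of mouse 1 and 2.20% of 2000 cells of mouse 2.

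The high-score cells were macrophages by their transcripts. Each of 10 macrophage markers, among them Csf1r, Adgre1 and C1qa, was detected in them in each mouse, and the 10 together made up 16306, 18450 and 21219 CPM (UMIs per 1000000 of the UMIs summed over the cells of a group in a mouse) in mice 1, 2 and 3, against 14929, 16281 and 18884 in the other cells. The markers did not all follow this sum. C1qa, C1qb, C1qc, Cd68, Fcgr1 and Mertk were higher in each mouse, and Adgre1 and Itgam had no common direction. Mrc1 was lower in each mouse. So was Csf1r, at 646, 611 and 558 CPM in the high-score cells of mice 1, 2 and 3, against 817, 745 and 733 in the others. The high-score cells were also more deeply sampled. Their median was 19153, 18628 and 11640.5 UMIs per cell, against 14675, 13083 and 9083 in the other cells, so each list below is also given against cells of equal UMI total where that changed its count by over 1.5 times. No barcode was shared by the kept cells of mice 1 and 2 or of mice 1 and 3, and 7 were shared by mice 2 and 3, of which 1 was a high-score cell.

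Spp1, the secreted phosphoprotein osteopontin, gave the largest share of the difference in score, 24.4% ± 1.45 (SD, n = 3 mice). Its level was 5841, 2501 and 5964 CPM in the high-score cells of mice 1, 2 and 3, against 1178, 429 and 1421 in the other cells. Fabp5, a cytosolic fatty acid-binding protein, gave 19.1% ± 1.33 of the difference. Its level was 1658, 1070.4 and 1622 CPM in the high-score cells of mice 1, 2 and 3, against 457, 241 and 387 in the other cells. For both genes every mouse was higher in the high-score cells and the ranges of the groups did not overlap.

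Trem2 itself gave 9.07% ± 1.31 of the score difference. Trem2 lies on chromosome 17 of GRCm38, at 48346401-48354147 on the plus strand, and its level was 1061, 970.1 and 1287 CPM in the high-score cells of mice 1, 2 and 3, against 638, 562 and 834 in the other cells. All 3 high-score values lay above all 3 other values, but the other cells also carried the receptor's transcript at more than 500 CPM in each mouse. Lgals3 encodes galectin-3, a lectin that marks damaged lysosomes, and its level was 2699.8, 2180.2 and 2176 CPM in the high-score cells of mice 1, 2 and 3, against 904, 879.6 and 1062 in the other cells. Its 3 high-score values were close together and lay above every value of the other cells.

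Cd9 and Cd63 encode tetraspanins, membrane proteins of the cell surface and of late endosomes. Cd9 had 536, 310.4 and 621 against 156, 149 and 239 CPM in mice 1, 2 and 3, high-score cells before other cells here and below, and Cd63 had 2259, 2496 and 2641 against 1483, 1403 and 1664 CPM. Syngr1, which encodes a synaptogyrin of vesicle membranes, had 237, 235 and 311 against 75.9, 68.2 and 111 CPM. Mouse 2 was the lowest for Cd9 in the high-score cells, and the groups overlapped for none of the 3 genes.

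Atp6v0d2, an alternative d subunit of the V-ATPase that is abundant in osteoclasts, was the scarcest of the 8 and gave 1.75% ± 0.692 of the score difference. Its level was 22.4, 26.9 and 42.2 CPM in the high-score cells of mice 1, 2 and 3, against 4.3, 2.4 and 4.32 in the other cells. The ranges did not overlap, and leaving the gene out of the score kept 100%, 99.1% and 97.3% of the cells of mice 1, 2 and 3. Leaving out Spp1 instead kept 71.2%, 73.0% and 76.5%, so membership turned on Spp1 far more than on Atp6v0d2.

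**Figure D1:**
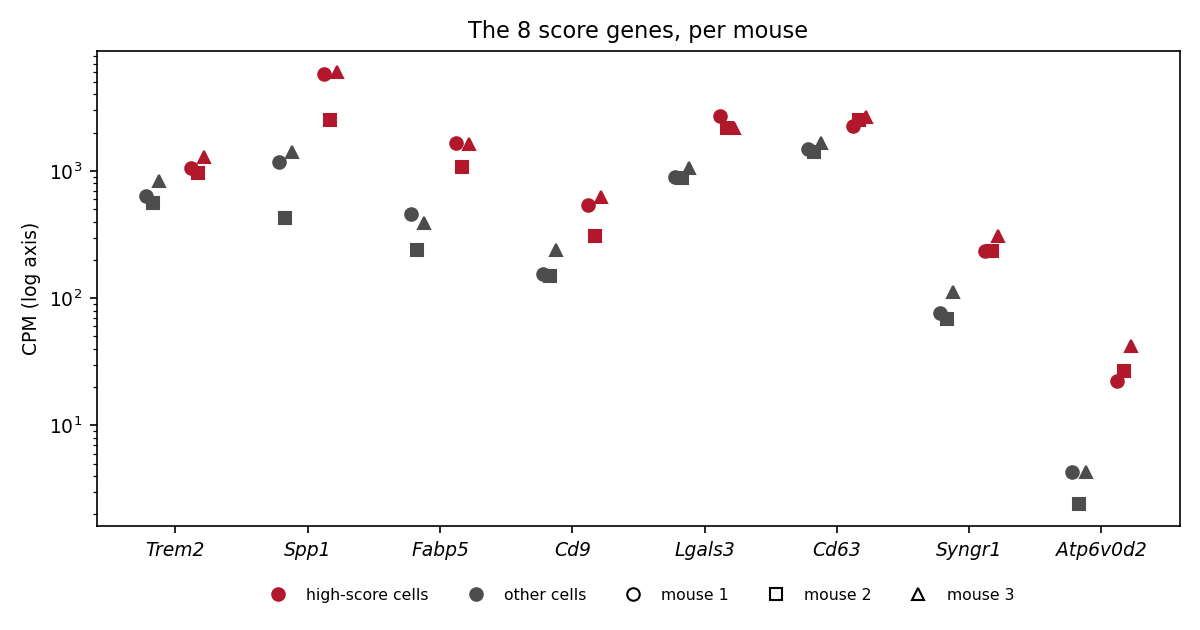
Level of each of the 8 score genes in CPM (log axis) in the high-score cells (red) and the other cells (grey) of mice 1 (circles), 2 (squares) and 3 (triangles). In each gene the 3 red values lie above the 3 grey ones, with Spp1 between 2501 and 5964 in the high-score cells and Atp6v0d2 between 22.4 and 42.2.

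To test each score gene apart from the choice, the cells were chosen again with that gene left out of the score, and the gene was compared between the top 10% by the other 7 genes and the remaining cells. All 8 genes were higher in 3 of 3 mice in these fits. Atp6v0d2 had 23.2, 23.6 and 36.1 CPM in the cells chosen, against 4.42, 2.69 and 5.12 in the rest. The groups did not overlap, and the log2 fold change was 2.85 ± 0.15 (SE, n = 3 mice, edgeR adjusted p = 5.0e-07).

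Spp1 reached 3866, 1560.4 and 4007 CPM in the cells chosen, against 1537, 550.00 and 1691 in the rest. Mouse 2 was the lowest in both groups and the ranges overlapped, while within each mouse the chosen cells were higher, with a log2 fold change of 1.36 ± 0.09 (SE, edgeR adjusted p = 3.3e-06). Fabp5 had a log2 fold change of 1.41 ± 0.09 (edgeR adjusted p = 7.2e-05) and Syngr1 one of 1.41 ± 0.07 (edgeR adjusted p = 3.7e-07). Smaller differences were found for Cd9, at 1.05 ± 0.11 (edgeR adjusted p = 8.6e-04), and Lgals3, at 0.90 ± 0.06 (edgeR adjusted p = 2.1e-06).

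Trem2 had 1005, 865 and 1241 CPM in the cells chosen, against 671, 555 and 832 in the rest. The 3 chosen values lay above the 3 others, and the log2 fold change was 0.60 ± 0.05 (edgeR adjusted p = 2.3e-04), close to that of Cd63 at 0.60 ± 0.06 (edgeR adjusted p = 5.2e-05). Each of the 8 calls held when any 1 mouse was left out.

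Across kept cells the 8 genes were not equally tied to each other. Pearson's r of the log values lay between 0.39 and 0.55 over the 3 mice for Trem2 with Cd63, between 0.27 and 0.40 for Spp1 with Cd9, and between 0.04 and 0.19 for Spp1 with Fabp5. Within the high-score cells Spp1 and Fabp5 had an r between -0.36 and -0.35. These r are descriptions over 663, 2108 and 6978 kept cells, which share a library and differ in depth, and the choice by a sum bears on the values among the high-score cells.

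Outside the 8 genes, 624 of 10991 tested genes were higher in the high-score cells (5.68%) and 884 were lower (8.04%), by edgeR's quasi-likelihood test on counts summed per mouse, with mouse as a term and a Benjamini-Hochberg adjusted p below 0.05. The median log2 fold change over all tested genes was -0.01. The ranges over the mice did not overlap for 1667 genes (15.2%). Without mouse 2 the counts fell to 303 higher and 456 lower, and without mouse 3 to 322 higher and 625 lower. Against comparison cells of equal UMI total they were 292 and 461 of 10096 genes tested.

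Gpnmb, which encodes a lysosomal and surface glycoprotein of lipid-laden macrophages, had a log2 fold change of 3.36 ± 0.25 (SE, edgeR adjusted p = 2.5e-04). It lies on chromosome 6 at 49036546-49070929, and its level was 68.8, 38.9 and 15.6 CPM in the high-score cells of mice 1, 2 and 3, against 5.63, 2.48 and 2.51 in the other cells. Every mouse was higher and the ranges did not overlap. The transcripts came from few cells. In the high-score groups 9, 16 and 33 cells carried a Gpnmb UMI, and the richest cell held 26.3%, 28.9% and 16.1% of them. In the other cells of mouse 1, 41 of 55 UMIs came from 1 cell. The call was lost against cells matched on UMI total, and the part of free RNA in cells with few UMIs was not tested.

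Of 16 tested genes of the TREM2 complex and its signalling, 2 were higher (12.5%) and 1 lower (6.25%), with a median log2 fold change of -0.02. Over all tested genes the shares were 5.68% higher and 8.04% lower. Apoe, the apolipoprotein that TREM2 binds, was 38289, 42050.00 and 45743 CPM in the high-score cells of mice 1, 2 and 3, against 27335, 32094 and 36219 in the other cells. The groups did not overlap, and the log2 fold change was 0.41 ± 0.05 (SE, edgeR adjusted p = 2.6e-04). The call was lost when Spp1, Cd9 and Cd63 were left out of the score.

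Tyrobp, the signalling adaptor, had 2639, 3029.9 and 3339 against 2633, 2503 and 2879 CPM in mice 1, 2 and 3, with nearly equal levels in mouse 1 and overlapping ranges, and did not pass the test (log2 fold change 0.17 ± 0.06, edgeR adjusted p = 0.087), although it did without mouse 1 (edgeR adjusted p = 0.0026). Ms4a7, a membrane protein of tissue macrophages, was higher (0.41 ± 0.06, edgeR adjusted p = 9.7e-04). Of 14 tested TREM family and related paired receptors none were higher and 2 were lower, Cd300ld (-0.63 ± 0.09, edgeR adjusted p = 4.4e-04) and Pilrb1 (-0.62 ± 0.19, edgeR adjusted p = 0.049, a call that was lost in 17 of the alternatives).

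Genes of lipid handling rose in part. Of 17 tested genes for lipid uptake and fatty acid binding, 4 were higher and 1 lower, with a median log2 fold change of 0.09. Slc27a1, a fatty acid transport protein, had 32.6, 32.9 and 29.6 CPM in the high-score cells of mice 1, 2 and 3, against 11.6, 17.2 and 15.7 in the other cells. No value of the other cells reached the high-score values, and the log2 fold change was 1.02 ± 0.11 (SE, edgeR adjusted p = 1.0e-04). Msr1, a scavenger receptor for modified lipoproteins, had 205, 228 and 204 against 134, 132 and 155 CPM and was higher without overlap (0.60 ± 0.07, edgeR adjusted p = 1.5e-04).

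Cd36, another scavenger receptor for fatty acids and oxidised lipoproteins, had 73.8, 28.3 and 10.3 CPM in the high-score cells of mice 1, 2 and 3, against 34.5, 39.6 and 18.3 in the other cells. Mouse 1 was higher in the high-score cells and mice 2 and 3 were lower, and the gene did not pass the test (log2 fold change -0.18 ± 0.51, edgeR adjusted p = 0.89). Without mouse 1 it was called lower (edgeR adjusted p = 0.0039). Lpl, the lipase that frees fatty acids from lipoproteins, had 157, 323 and 124 against 150.5, 382 and 98.7 CPM, with mouse 2 the highest in both groups, and did not pass either (0.05 ± 0.13, edgeR adjusted p = 0.84). Fabp4, a relative of Fabp5, was scarce in both groups and not called (0.80 ± 0.29, edgeR adjusted p = 0.095), but it passed without mouse 1 (edgeR adjusted p = 0.018).

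Of 12 tested genes of lipid storage and droplets 3 were higher and none lower (median 0.20), which became 1 higher without mouse 2 and 1 against cells matched on UMI total. Plin2, a coat protein of lipid droplets, had 1225, 783 and 997 CPM in the high-score cells of mice 1, 2 and 3, against 769, 557 and 774 in the other cells. Within each mouse the high-score cells were higher and the ranges did not overlap, with a log2 fold change of 0.52 ± 0.06 (SE, edgeR adjusted p = 2.4e-04). Plin3, another droplet coat protein, and Soat1, which esterifies cholesterol, were higher by 0.34 (edgeR adjusted p = 0.017) and 0.25 (edgeR adjusted p = 0.019). Both calls were lost without mouse 2, and that of Soat1 also without mouse 3.

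For cholesterol efflux and targets of the nuclear receptor LXR, 6 of 20 tested genes were higher and 3 lower (median 0.09). Without mouse 2 the counts were 4 and 1 of 21. Nr1h3, which encodes LXR alpha, had 15.9, 24.6 and 19.8 CPM in the high-score cells of mice 1, 2 and 3, against 9.01, 12.4 and 13.4 in the other cells. The ranges did not overlap, and the log2 fold change was 0.77 ± 0.12 (SE, edgeR adjusted p = 0.0012). The apolipoprotein genes Apoc1 and Apoc4, neighbours of Apoe, were higher by 1.07 (edgeR adjusted p = 0.022) and 0.98 (edgeR adjusted p = 1.5e-04), and the call of Apoc1 was lost without mouse 2. Abca1, the cholesterol exporter, had 251, 373 and 229.8 against 236, 316 and 229 CPM, nearly equal in mouse 3, and did not pass the test (0.12 ± 0.06, edgeR adjusted p = 0.24). Of 20 tested genes of cholesterol synthesis none were higher and 2 were lower, among them Srebf2, the transcription factor of the pathway (-0.47, edgeR adjusted p = 0.018). The Srebf2 call was lost in 9 of the alternatives, among them the fits without mouse 2 and without mouse 3, DESeq2's Wald test and the cells matched on UMI total. Without mouse 3 the list had 4 other genes lower of 19.

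**Figure D2:**
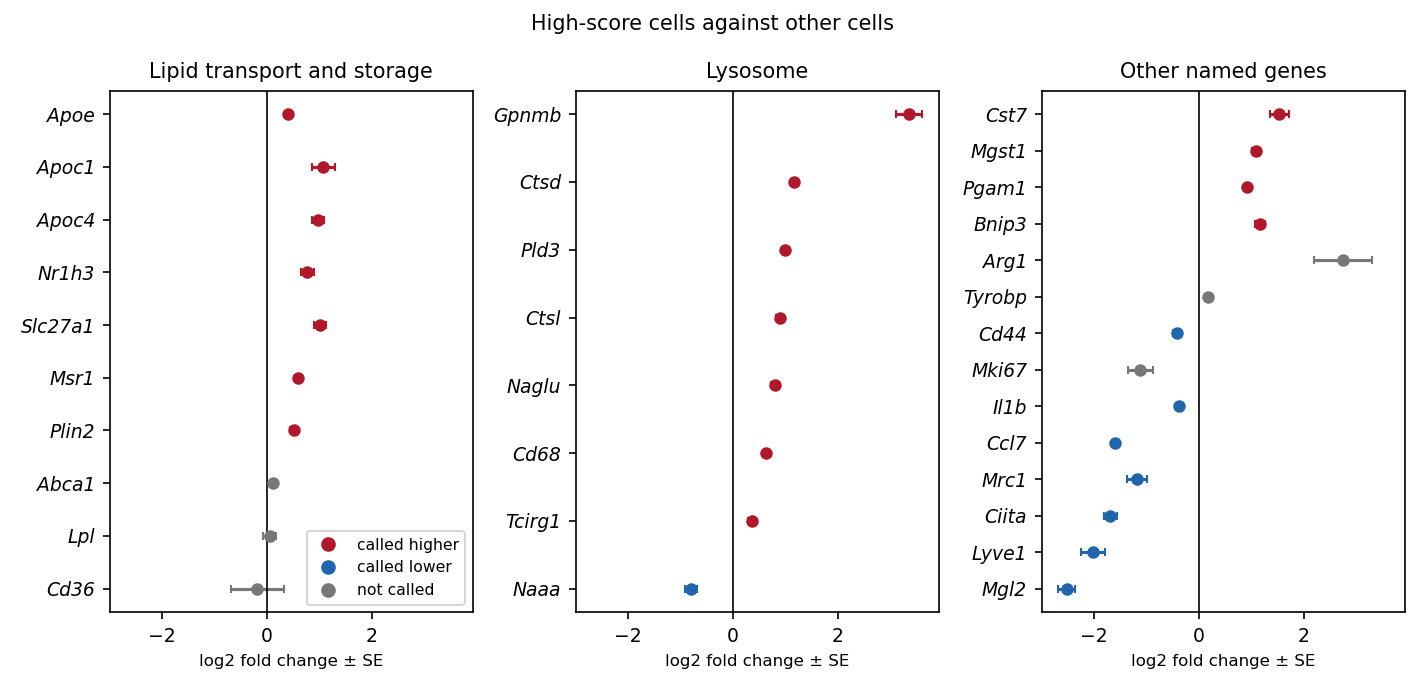
Log2 fold change (points) with its SE (bars) of named genes in the high-score cells against the other cells, n = 3 mice, coloured by the edgeR call. Gpnmb (3.36), Ctsd (1.16) and Slc27a1 (1.02) lie to the right, Mgl2 (-2.51), Lyve1 (-2.01) and Ciita (-1.68) to the left, and Tyrobp, Abca1, Lpl and Cd36 are not called.

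The degradative enzymes of the lysosome, the longest list, had the most calls by number. Of 46 tested hydrolases and activators 27 were higher and 1 was lower, a share of 58.7% against 5.68% of all genes, and the median log2 fold change was 0.26. The median was 0.25, 0.29 and 0.30 within mice 1, 2 and 3. The summed level of the list was 37388, 34082 and 40092 CPM in the high-score cells against 28109, 24396 and 29897 in the others. Every high-score sum lay above every other sum. The counts were 18 higher and 1 lower without mouse 2, 18 higher and 3 lower of 45 without mouse 3, and 22 higher and 1 lower of 45 against cells matched on UMI total.

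Ctsd, which encodes the aspartic protease cathepsin D, lies on chromosome 7 at 142375911-142388038. Its level was 4219, 4077 and 5835 CPM in the high-score cells of mice 1, 2 and 3, against 1931, 1756 and 2691 in the other cells. The highest of the other values, in mouse 3, lay below all 3 high-score values, and the log2 fold change was 1.16 ± 0.05 (SE, edgeR adjusted p = 1.6e-07). Pld3, an endolysosomal exonuclease, had 275, 217 and 319 against 124, 119 and 162 CPM and was higher without overlap (1.00 ± 0.07, edgeR adjusted p = 2.7e-06). Ctsl, cathepsin L, was higher by 0.89 (edgeR adjusted p = 7.3e-06), and Naglu, an enzyme of heparan sulfate breakdown, by 0.80 (edgeR adjusted p = 2.9e-05). Naaa, an acid amidase of fatty acid ethanolamides, was the exception among the hydrolases and was lower, with 42.7, 41 and 62 against 94.2, 80.8 and 91 CPM (log2 fold change -0.80 ± 0.11, edgeR adjusted p = 0.0014).

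Of 23 tested lysosomal membrane proteins 5 were higher, Gpnmb among them, and 1 lower (median 0.08). Without mouse 2 there were 3 higher and none lower, without mouse 3 there were 3 higher and 1 lower, and against cells matched on UMI total 2 were higher. Cd68, a heavily glycosylated membrane protein of macrophage lysosomes, had 1098, 908 and 1071 against 661, 602 and 739 CPM and was higher without overlap (0.63 ± 0.06, edgeR adjusted p = 3.3e-05). Of 17 tested V-ATPase subunits besides Atp6v0d2, 10 were higher and none lower, by small amounts (median 0.22). Tcirg1, an a subunit, was higher by 0.36 (edgeR adjusted p = 0.0021), and Atp6v0d1, the usual d subunit, by 0.24 (edgeR adjusted p = 0.018), a call lost without mouse 2 and without mouse 3. The V-ATPase count fell to 2 higher and 1 lower without mouse 3 and to 6 higher without mouse 2, with medians of 0.22 and 0.26, and was 6 higher against matched cells.

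The promoters of these lysosomal genes were searched for the letters TCACGTG, the core of the element that the MiT transcription factors TFEB and TFE3 bind in many lysosomal genes. The 250 bases before the start site were read on both strands from RefSeq promoters of GRCm38.p6, and CACGTG, which TCACGTG contains, was searched as well. TCACGTG was in 9 of the 33 genes with a promoter among 42 lysosomal and V-ATPase genes called higher (27.3%). It was in 7 of the 35 with a promoter among 44 such genes not called higher (20%), and in 526 of 8584 tested genes with a promoter (6.13%). CACGTG was in 30.3%, 22.9% and 10.4% of these groups, in the same order. None of the 6 score genes with a promoter held TCACGTG in this window. The match is a description of letters and no measure of binding. Stretches are shown, 5′ to 3′, for called genes that hold it, with matches to TCACGTG or its reverse complement in capitals. The RefSeq starts of Ctsd and Naglu lie inside the GENCODE genes, so for these 2 the stretches are either outside the GENCODE gene or 26 bases around the match. Lamp1, a major membrane glycoprotein of lysosomes, was chosen for display after its values were seen. It was higher by 0.27 ± 0.06 (SE, edgeR adjusted p = 0.0058), and its whole window lies before the GENCODE gene and holds the letters 4 times over both strands.

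Ctsd before the gene, chr7:142388039-142388077, minus strand: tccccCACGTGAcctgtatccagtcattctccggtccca

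Ctsd second match, chr7:142387910-142387935, minus strand: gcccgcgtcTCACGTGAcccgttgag

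Naglu match, chr11:101070011-101070036, plus strand: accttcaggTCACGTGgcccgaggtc

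Lamp1 promoter, chr8:13158911-13159160, plus strand: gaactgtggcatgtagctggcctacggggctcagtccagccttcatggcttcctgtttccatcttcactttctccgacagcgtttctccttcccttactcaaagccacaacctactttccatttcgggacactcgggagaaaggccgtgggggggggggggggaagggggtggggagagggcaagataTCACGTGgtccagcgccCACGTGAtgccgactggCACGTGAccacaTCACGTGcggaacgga

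Of 17 tested MiT and LXR family and macrophage lineage factors 2 were higher (11.8%) and 5 lower (29.4%), with a median log2 fold change of -0.17. The shares over all tested genes were 5.68% higher and 8.04% lower. The higher ones were Nr1h3, given above, and Bhlhe41 (0.56, edgeR adjusted p = 0.0031), a repressor of the basic helix-loop-helix class. Maf, a factor of mature macrophages, was lower, at a log2 fold change of -0.48 (edgeR adjusted p = 8.9e-04). The lower count was 1 without mouse 2, 3 without mouse 1 and 3 against matched cells.

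The families of the score genes did not move alike. The V-ATPase subunits are given above. Of 14 tested tetraspanins besides Cd9 and Cd63, 1 was higher and none lower (median -0.08). It was Tspan4, with 57.9, 64.1 and 69.2 against 42.9, 36.2 and 45.8 CPM and no overlap (0.66 ± 0.08, edgeR adjusted p = 3.0e-04). Cd81, a tetraspanin related to Cd9, had 555, 596 and 752 against 535, 686 and 765 CPM and overlapping ranges (-0.05 ± 0.07, edgeR adjusted p = 0.68). Without mouse 3 there were 1 higher and 3 lower tetraspanins. Of 5 tested galectins and galectin-binding genes besides Lgals3, 2 were higher, Lgals1 (0.52 ± 0.06, edgeR adjusted p = 1.0e-04) and Lgals3bp (0.28 ± 0.06, edgeR adjusted p = 0.0092), the latter a call lost without mouse 2 and without mouse 3. The calls among receptors for osteopontin were in the other direction. Of 7 tested, none were higher and 3 were lower, which became 1 without mouse 2, 1 without mouse 3 and 1 against matched cells. Cd44, the hyaluronan and osteopontin receptor, had 161, 190.1 and 129 against 204, 279 and 166 CPM, lower within each mouse although the ranges overlapped (-0.42 ± 0.07, edgeR adjusted p = 0.0018).

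A list of genes of disease-associated microglia, the TREM2-dependent state of brain macrophages, had 13 of 28 tested genes higher and 1 lower, with a median log2 fold change of 0.40. Without mouse 1 it had 16 higher and 4 lower. Its genes Ctsd, Ctsb, Ctsl, Ctsz, Cd68 and Gpnmb also stand in the lysosomal lists. Cst7, a cystatin that inhibits cysteine proteases, had 12.3, 12.5 and 14.7 CPM in the high-score cells of mice 1, 2 and 3, against 2.66, 4.09 and 6.15 in the other cells. All high-score values were above all other values, and the log2 fold change was 1.53 ± 0.19 (SE, edgeR adjusted p = 2.0e-04). Csf1, the macrophage growth factor, was higher by 0.91 (edgeR adjusted p = 0.0015) and Itgax, the integrin CD11c, by 0.47 (edgeR adjusted p = 7.1e-04). The lower gene was Lilrb4a, an inhibitory receptor (-0.45, edgeR adjusted p = 6.4e-04).

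Osteoclasts also carry Atp6v0d2, Acp5 and Spp1, so their other genes were read. Of 9 tested osteoclast-type and fusion genes none were higher and 4 were lower (median -0.16), or 1 higher and 2 lower of 7 against matched cells. Ocstamp, which is needed for cell fusion, had 7.96, 12.1 and 4.59 against 14.8, 17.8 and 16.2 CPM and was lower (-1.14 ± 0.22, edgeR adjusted p = 0.01), a call lost without mouse 1. Acp5, the tartrate-resistant acid phosphatase, had 727, 1332 and 758 against 354, 897 and 635 CPM, higher within each mouse with overlapping ranges, and did not pass the test (0.62 ± 0.16, edgeR adjusted p = 0.10). It was called higher in 9 of the alternatives, among them the fits without mouse 1 and without mouse 3, with a log2 fold change between 0.38 and 0.79 over all alternatives. Calcr, the calcitonin receptor, and Oscar had 0 UMIs in the high-score cells of all 3 mice. In those of mouse 1, where the summed UMIs are fewest, 0 allows up to 2.17 CPM, by counting error only. The other cells also had 0 UMIs of Calcr in all 3 mice, and 0, 0 and 2 of Oscar in mice 1, 2 and 3.

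Most tested glycolytic genes were higher. Of 18, 11 were higher and none lower (median 0.61), and of 20 tested hypoxia response genes 12 were higher and none lower (median 0.52). No gene stands in both lists. Pgam1, a phosphoglycerate mutase, had 801, 455 and 592 CPM in the high-score cells of mice 1, 2 and 3, against 421, 236 and 325 in the other cells. The ranges did not overlap, and the log2 fold change was 0.92 ± 0.06 (SE, edgeR adjusted p = 2.5e-06). Tpi1 and Pkm, further glycolytic enzymes, were higher by 0.90 (edgeR adjusted p = 7.1e-06) and 0.79 (edgeR adjusted p = 1.1e-05). Bnip3, a mitophagy receptor induced by hypoxia, had 141, 34.3 and 64 against 50.5, 16.2 and 32.5 CPM, higher within each mouse although mouse 2's high-score value was below mouse 1's other value (1.17 ± 0.10, edgeR adjusted p = 1.1e-05).

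Part of the high-score cells were also high for the hypoxia list. In mice 1, 2 and 3, 33.3%, 21.8% and 21.6% of them were in the top 10% of their library by that list. With cells thinned to 2000 UMIs and both choices made again, the shares were 21.0%, 13.5% and 18.0%. The cells high for the hypoxia list were then left out, and the top 10% of the remaining cells of each library was chosen again. This gave 60, 190 and 628 cells in mice 1, 2 and 3, of which 44, 165 and 547 were high-score cells of the first choice. In that comparison 9 of 18 glycolytic genes were higher and 1 was lower (median 0.31), and 28 of 45 lysosomal hydrolases were higher and 2 lower. The hypoxia list itself then had 1 higher and 1 lower of 18. Arg1, arginase 1, had 203, 42.7 and 73.6 CPM in the high-score cells of mice 1, 2 and 3, against 54.5, 2.34 and 11.4 in the other cells. It was higher in 3 of 3 mice, but the ranges overlapped through mouse 1, where 1 of the other cells held 47.2% of that group's Arg1 UMIs, and the gene did not pass the test (2.74 ± 0.55, edgeR adjusted p = 0.13). Without mouse 2 it passed (edgeR adjusted p = 0.012).

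**Figure D3:**
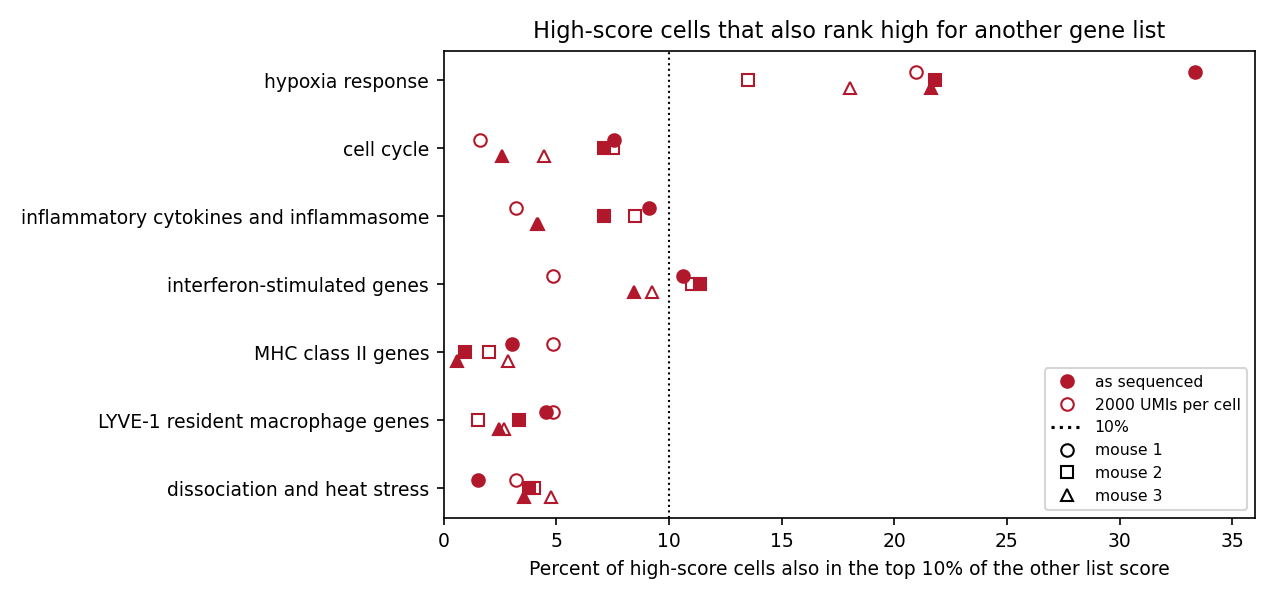
Percent of the high-score cells of each mouse that were also in the top 10% of their library by the score of another gene list, as sequenced (filled) and with 2000 UMIs per cell (open), with a dotted line at 10%. For the open symbols, the high-score cells and the cells high for the list were both chosen again after thinning. The hypoxia list lies between 21.6% and 33.3% as sequenced, while the MHC class II list lies between 0.573% and 3.03%.

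Most tested genes of antigen presentation on MHC class II were lower. Of 14, none were higher and 9 were lower (median -0.77). Ciita, the master regulator of these genes, had 7.96, 16.7 and 5.74 CPM in the high-score cells of mice 1, 2 and 3, against 27, 46.4 and 21.7 in the other cells. The high-score values were all below the other values, and the log2 fold change was -1.68 ± 0.12 (SE, edgeR adjusted p = 4.1e-06). H2-Eb1, a class II beta chain, had 57.2, 70.2 and 48.9 against 107, 174 and 124 CPM and was lower without overlap (-1.23 ± 0.08, edgeR adjusted p = 2.7e-06). The list had 8 lower without mouse 2, 9 without mouse 3 and 8 against cells matched on UMI total.

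The calls among monocyte-attracting and inflammatory genes were mostly lower as well. Of 22 tested chemokines 1 was higher and 8 were lower (median -0.72), and of 19 inflammatory cytokine and inflammasome genes 1 was higher and 11 were lower (median -0.37). Ccl7, a ligand of CCR2, had 373, 459 and 300.3 CPM in the high-score cells of mice 1, 2 and 3, against 1182, 1329.8 and 905 in the other cells. Each high-score value was below each other value, and the log2 fold change was -1.59 ± 0.06 (SE, edgeR adjusted p = 3.5e-08). Il6 fell by 2.22 ± 0.28 on the log2 scale (edgeR adjusted p = 2.7e-04), with 0 UMIs in the high-score cells of mouse 1. Il1b, interleukin-1 beta, stayed abundant, at 4039, 5057 and 3082 against 5747, 6002 and 4026 CPM, and was lower within each mouse with overlapping ranges (-0.37 ± 0.06, edgeR adjusted p = 0.0013). The higher genes were Cxcl14, a chemokine of epithelium and macrophages (0.67 ± 0.07, edgeR adjusted p = 6.0e-05), and Il23a (0.78 ± 0.21, edgeR adjusted p = 0.03), whose call was lost in 12 of the alternatives and whose direction turned in 1 more. Against cells matched on UMI total the chemokines had 1 higher and 3 lower of 20, and the inflammatory genes 5 lower of 19.

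The calls among genes of other macrophage states were lower, with 1 exception. Of 14 tested genes of LYVE-1 resident macrophages none were higher and 7 were lower (median -1.15). Cd163, the haemoglobin scavenger receptor, had 1.45, 3.96 and 6.16 against 20.7, 18.2 and 26.5 CPM and was lower without overlap (-2.21 ± 0.17, edgeR adjusted p = 6.3e-06). Lyve1, the hyaluronan receptor that gives the list its name, had 0, 7.29 and 5.64 against 5.42, 18.5 and 29.3 CPM, lower within each mouse with overlapping ranges (-2.01 ± 0.23, edgeR adjusted p = 4.6e-04). Of 14 alternative activation genes 1, the transglutaminase gene Tgm2, was higher and 6 were lower (median -1.25). The Tgm2 call was lost in 9 of the alternatives, among them the fits without mouse 1 (edgeR adjusted p = 0.070) and without mouse 2 (edgeR adjusted p = 0.083). Mgl2, a galactose-binding lectin, had 5.07, 5.41 and 3.65 against 22.2, 39.9 and 17.8 CPM and no overlap (-2.51 ± 0.16, edgeR adjusted p = 2.6e-06). Mrc1, the mannose receptor, was lower (-1.17 ± 0.19, edgeR adjusted p = 0.041), a call that was lost in 10 of the alternatives, the fit without mouse 2 among them. Of 10 monocyte genes none were higher and 4 were lower (median -0.57), with Ccr2, the receptor of Ccl2 and Ccl7, at 117, 49.1 and 32.5 against 241, 176 and 124 CPM (-1.64 ± 0.20, edgeR adjusted p = 0.018), a call lost without mouse 2. When the top 5% of each library were taken instead, the LYVE-1 list had 4 lower and the alternative activation list 3.

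**Figure D4:**
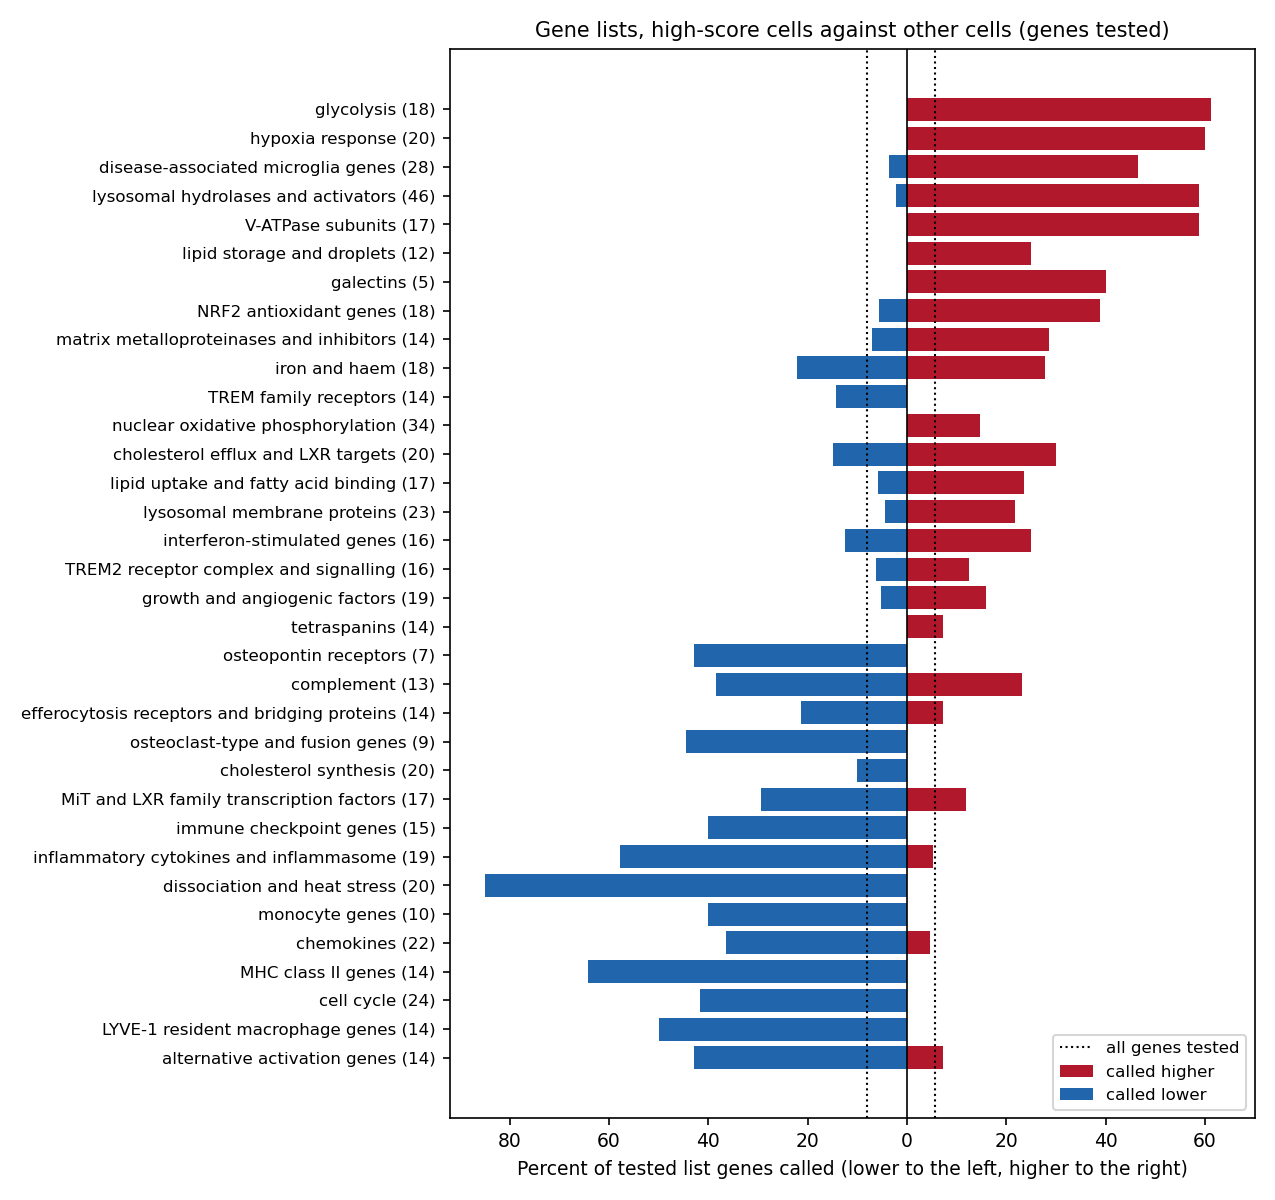
Percent of the tested genes of each list that were called higher (red, right) or lower (blue, left) in the high-score cells, with the number of genes tested in parentheses and dotted lines at the shares of all genes, 5.68% and 8.04%. Glycolysis, hypoxia response, V-ATPase subunits and lysosomal hydrolases reach farthest to the right, and dissociation and heat stress genes and MHC class II genes farthest to the left.

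The calls among cell cycle genes were all lower. Of 24 tested cell cycle genes none were higher and 10 were lower (median -1.11). Ube2c, a ubiquitin-conjugating enzyme of mitosis, had 4.34, 11.4 and 16.4 against 30.9, 35.4 and 56.9 CPM in mice 1, 2 and 3. All high-score values were below all other values (-1.79 ± 0.13, edgeR adjusted p = 3.1e-06). Mki67, the proliferation antigen, was lower within each mouse and did not pass the test (-1.11 ± 0.23, edgeR adjusted p = 0.073), although it did without mouse 2 (edgeR adjusted p = 0.031) and without mouse 3 (edgeR adjusted p = 3.7e-06). The list had 2 lower of 22 with the cells high for the cell cycle list left out, 5 lower of 24 with the hypoxia-high cells left out and 6 lower in the top 20% of each library.

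Genes that respond to tissue dissociation and heat were lower in 17 of 20 tested, with none higher (median -0.49). Dnajb1, a heat shock cochaperone, had 35.5, 59.1 and 50.8 against 73.8, 92 and 90.6 CPM and no overlap (-0.78 ± 0.08, edgeR adjusted p = 6.4e-05). Hspa1a was also lower (-0.77 ± 0.12, edgeR adjusted p = 0.013), and its reads may be split with the near-identical Hspa1b. The count was 8 of 20 against cells matched on UMI total. The part of this list in the other differences was not tested.

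Smaller numbers of calls were found in the remaining metabolic and stress lists. Of 18 tested NRF2 antioxidant genes 7 were higher and 1 lower (median 0.16), with Mgst1, a microsomal glutathione transferase, at 128, 92.4 and 130.2 against 64.6, 37.6 and 66.8 CPM and no overlap (1.09 ± 0.08, edgeR adjusted p = 2.7e-06). Without mouse 1 that list had 6 higher and 3 lower of 19. Of 18 iron and haem genes 5 were higher and 4 lower (median 0.13), among them the ferritin chains Ftl1 (0.47, edgeR adjusted p = 1.9e-04) and Fth1 (0.39, edgeR adjusted p = 0.0025). Without mouse 2 the iron list had 2 higher and 2 lower, without mouse 3 it had 3 and 2, and against matched cells 2 and 2. Of 34 nuclear genes of oxidative phosphorylation 5 were higher and none lower (median 0.13), a count of 1 without mouse 2, 1 without mouse 3, 8 without mouse 1 and 0 against matched cells.

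Of 14 tested matrix metalloproteinases and inhibitors 4 were higher and 1 lower (median 0.16). Mmp8, a neutrophil collagenase, had 11.6, 6.87 and 2.09 against 0.921, 0.733 and 0.5 CPM (2.87 ± 0.35, edgeR adjusted p = 2.0e-04), from 4, 8 and 11 high-score cells with a UMI, and the richest cell held 68.8%, 60.6% and 35.0% of them. Adam8, a membrane protease, was higher by 0.71 (edgeR adjusted p = 2.0e-04). Of 15 immune checkpoint genes none were higher and 6 were lower (median -0.25), a count of 3 without mouse 2.

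Outside the lists, the genes that rose most at 50 CPM or more included Fam20c, a secretory pathway kinase (1.13 ± 0.12, edgeR adjusted p = 5.0e-04), Pdpn, the glycoprotein podoplanin (1.09 ± 0.09, edgeR adjusted p = 8.4e-06), and Mif, the macrophage migration inhibitory factor (0.97 ± 0.07, edgeR adjusted p = 2.7e-06). Gpr137b, a lysosomal membrane protein that was not on the list above, had 185, 181 and 212 CPM in the high-score cells of mice 1, 2 and 3, against 88.3, 92.9 and 116 in the other cells. The ranges did not overlap (0.96 ± 0.06, edgeR adjusted p = 2.6e-06). Among those that fell were Lyz1, a lysozyme that shares sequence with Lyz2 so that its reads may be split (-1.75 ± 0.07, edgeR adjusted p = 6.6e-08), Igfbp4, which binds insulin-like growth factors (-1.35 ± 0.09, edgeR adjusted p = 2.7e-06), and Jdp2, a repressor of AP-1 (-0.93 ± 0.08, edgeR adjusted p = 1.2e-05).

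The levels of some genes were also read along the score. The cells of each library were put in 10 bins of equal size by score, bin 10 being the high-score cells. Ctsd averaged 1369 CPM over the mice in bin 1 and 1099 in bin 2, and its mean was higher in each later bin, up to 3274 in bin 9 and 4710 in bin 10. Ccl7 averaged 1779 in bin 1, 1998 in bin 2, 941 in bin 6, 1115 in bin 7, 692 in bin 9 and 377 in bin 10, so its course was not even. Ciita averaged 53.4 in bin 1, 29.5 in bin 5, 32.5 in bin 6 and 10.1 in bin 10. Ube2c had 36.9 in bin 9 and 10.7 in bin 10. Gpnmb was at 5.41 and 41.1 in those bins, although bin 6 averaged 12.2 through mouse 1. Bin 1 had far fewer UMIs per cell, with a median of 2798 in mouse 1, and the part of depth in these courses was not tested.

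**Figure D5:**
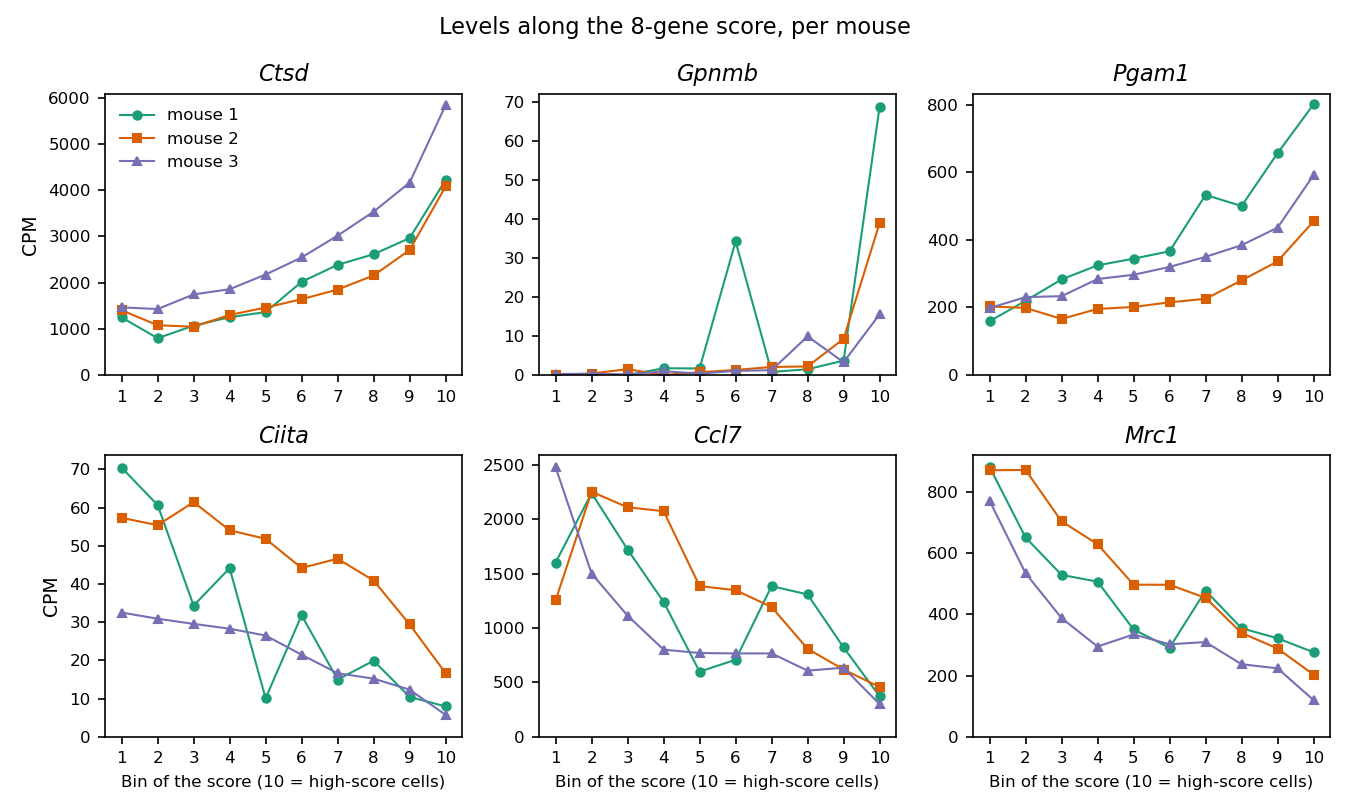
Level in CPM of 6 genes over 10 bins of the score within each library (10 = the high-score cells), 1 line per mouse, each panel with its own axis from 0. In each mouse Ctsd, Pgam1 and Gpnmb are highest in bin 10, with Gpnmb at 15.6 to 68.8, and Ciita, Ccl7 and Mrc1 are lowest there, while the lines between are not even.

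Transcripts of other cell types were found in both groups, and their part in the differences above was not tested. The 12 tumour epithelium markers summed to 22.4, 115 and 41.6 CPM in the high-score cells of mice 1, 2 and 3, against 71.1, 147 and 114 in the others. The list's lower sum was not shared by all its genes in mouse 2. There the keratin genes Krt18 and Krt8 were at 42.3 and 18.5 in the high-score cells against 6.82 and 6.09 in the others. The adhesion gene Epcam was at 15.2 against 8.76, and the claudin genes Cldn3, Cldn4 and Cldn7 were at 5.20, 3.54 and 4.996 against 2.59, 0.254 and 1.66. The milk protein genes Wfdc18 and Lalba were lower in mouse 2, at 9.58 and 15.2 against 76.8 and 41.4. In mouse 3 Krt18 was at 6.06 in the high-score cells and 15.005 in the others.

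The T cell list lay between 17.6 and 20.2 CPM in the high-score cells and between 17.8 and 45.3 in the others. Most of it in the high-score cells was Cd4, which was higher in each mouse, at 17.4, 11.9 and 15.2 against 14.7, 8.90 and 10.6. Cd2 was lower in each mouse, at 0.724, 7.70 and 1.98 against 2.87, 29.4 and 6.84. Cd3e had 0 UMIs in the high-score cells of all 3 mice, but only 0, 28 and 5 in the others. The B cell list was lower, at 53.6 to 92.4 against 133 to 166, most of it Ighm. Neutrophil markers summed to 45.6, 39.3 and 42.4 in the high-score cells of mice 1, 2 and 3 against 34.9, 50.3 and 35.2 in the others. Among them S100a8 was higher in each mouse, at 5.07, 5.20 and 2.72 against 1.94, 0.902 and 1.57 CPM, as was Mmp8, given above. Ltf was lower in each mouse, at 1.45, 0.625 and 3.03 against 3.99, 22.7 and 3.57 CPM. Csf3r had no common direction, and Ly6g had 0 UMIs in both groups. Endothelial markers summed to 15.9, 7.29 and 8.88 against 8.90, 10.9 and 9.58. The osteoclast list, most of it Acp5 and Dcstamp, summed to 1007, 1695 and 979 against 729, 1308 and 969.6. Acp5 was higher in each mouse, while Dcstamp was lower in each, at 242, 307 and 183 against 321, 347 and 279. Ocstamp, Mmp9 and Nfatc1 were also lower in each mouse. Leaving out cells with 2 or more epithelial UMIs gave 571 higher and 837 lower genes. Leaving out cells with 2 or more UMIs of a list of another lineage, epithelium and osteoclasts aside, gave 336 higher and 638 lower of 9511 tested. This cut took 39.4%, 49.3% and 31.4% of the high-score cells of mice 1, 2 and 3, and 58.5%, 65.2% and 45.6% of the others. The top 10% chosen again held 29, 77 and 390 cells. These lists hold Csf3r, Cd4 and Ighm, which had UMIs in both groups in each mouse. How many of the cells taken out belong to other lineages was not tested.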

How the data were processed

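Single-cell RNA was measured in 3 libraries, 1 per mouse, prepared with the v3 version of the 10x 3' kit per the labels' protocols. The authors deposited matrices of unnormalized UMI counts that hold called cells only, made with Cell Ranger 3.0.2 on mm10 per the file headers and the submitters' processing notes. The annotation version is not given in the sources used here. The libraries held 1074, 2470 and 7429 barcodes with 12454677, 41097369 and 86178419 UMIs.

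Barcodes under 500 genes or over 15% mitochondrial UMIs were dropped (411, 362 and 451). Scrublet (scanpy 1.11.5) called 0, 6 and 2 doublets, too few for a working caller, so its calls were not used, and removal of the highest scores was an alternative. Counts were summed per mouse over high-score and other cells. Genes passing filterByExpr went into edgeR 4.0.16 (R 4.3.3) with TMM scaling (robust quasi-likelihood F test, 2-sided, mouse as a term), with Benjamini-Hochberg adjustment over the 10991 genes outside the score and a threshold of 0.05. The mouse term pairs sums from the same animal. The SE is the log2 fold change divided by the square root of F. The fits that left a score gene out were adjusted over all genes of the fit, where adjustment over 8 tests had been planned. Levels are CPM, UMIs per 1000000 of the summed UMIs, and no tests were run on lists. A count of 0 is read as allowing up to 3 UMIs, for counting error only. Gene positions came from GENCODE M21 (GRCm38).

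The cells, the 8 genes and the lists were chosen with earlier results of these data known. Named genes were the 8 score genes, 21 genes set whatever their result, in each list the 4 largest higher and 3 largest lower calls that had 1 direction in all 3 mice, and outside the lists the 10 largest in each direction at a mean of 50 CPM or more, without predicted, ribosomal and mitochondrial genes. The alternatives were DESeq2 1.42.0, its size factors, no filter on low counts, no mouse term, other cell filters, other thresholds and scores, thinning or halving of UMIs, matching on UMI total, leaving out cells high for other lists or lineages, and leaving out each mouse. Where cells high for other lists or lineages were left out, or where scores came from thinned cells, the top 10% was chosen again. The searches for TCACGTG and the other letters used RefSeq promoters (GRCm38.p6). Some genes that the rule names are not reported here.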

Additional observations from a re-analysis of the deposited data

How the results depend on the processing

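Every called gene kept its direction in the fits without mouse 1, mouse 2 or mouse 3 in which it was tested, and 679 of the 759 calls without mouse 2 and 814 of the 947 without mouse 3 were also calls with all mice. Leaving out 1 mouse gave 303 to 641 higher and 456 to 914 lower genes. DESeq2's Wald test gave 348 higher and 509 lower, cells matched on UMI total gave 292 and 461, leaving out cells with UMIs of other lineages gave 336 higher, and the top 5% of each library gave 412 higher. Without the replicate block, that is without mouse as a term, edgeR called 0 genes higher and 1 lower after Benjamini-Hochberg adjustment, with 374 higher and 587 lower at an unadjusted p below 0.05. The other alternatives stayed within 1.5 times of the counts of the report. Of 3366 values of named genes in the alternatives other than the fit without the block, 2966 kept direction and side of the threshold, 395 changed side and 5 reversed, and the cause was not tested. The reversed log2 fold changes were Isg15 at 0.0069 with epithelial UMI cells left out, Mmp9 at 0.042 with each score gene scaled to unit variance, Il23a at -0.56 with hypoxia-high cells left out, and Ccl17 at 0.30 with thinned scores and at 0.77 in the top 20%. Depth limits the rarest genes most in mouse 1, whose 66 high-score cells put 3 UMIs at 2.17 CPM.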

Other observations

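Several lists not described above had few or mixed calls. Of 13 tested complement genes 3 were higher and 5 lower (median log2 fold change -0.11), which became 1 and 2 of 14 without mouse 2 and 1 and 2 of 12 without mouse 3. C1qa, a subunit of the recognition protein C1q, was higher by 0.20 ± 0.05 (SE, edgeR adjusted p = 0.025), a call lost in 9 of the alternatives, among them the fits without mouse 2 (edgeR adjusted p = 0.22) and without mouse 3 (edgeR adjusted p = 0.26). Of 16 interferon-stimulated genes 4 were higher and 2 lower (median 0.02), with Ifit3 at 0.92 ± 0.15 (edgeR adjusted p = 0.0014) and Gbp2 at -0.93 ± 0.14 (edgeR adjusted p = 7.2e-04). Those counts were 1 and 2 without mouse 2, 2 and 3 without mouse 3, and 0 and 1 against cells matched on UMI total.

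Of 14 efferocytosis genes 1 was higher and 3 lower (median -0.13), which was 1 and 1 without mouse 2. The higher gene was Mertk, a receptor for apoptotic cells (0.38 ± 0.08, edgeR adjusted p = 0.0057, a call lost without mouse 3), and Pros1, a bridging ligand of that receptor, was lower (-0.57 ± 0.11, edgeR adjusted p = 0.0056, a call lost without mouse 2). Of 19 growth and angiogenic factors 3 were higher and 1 lower (median -0.07), or 4 and 4 of 20 without mouse 1. Gdf3, a TGF-beta family ligand, was higher (0.95 ± 0.13, edgeR adjusted p = 9.2e-04), and Hbegf, a ligand of the EGF receptor, was lower (-1.05 ± 0.15, edgeR adjusted p = 9.6e-04). Of 81 cytoplasmic ribosomal protein genes none were higher and 6 were lower (median -0.10), and of 13 mitochondrially encoded genes none were higher and 1 was lower (median -0.13).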
